A study of Rattus norvegicus with 18 samples.

Results

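The tags described here carry a single A-to-G mismatch within a miRNA of the rat cortex. A tag is a distinct small RNA sequence together with the number of reads that had it. Members were found by sequence: a tag had to start at the mature 5′ end of a miRNA whose sequence the study's primers or its list of nucleotide changes gives, and to differ from that miRNA by exactly 1 base, A read as G. The site had to lie from position 2 to 3 bases before the end of the tag, and the tag had to be present in both sequencing runs of a tissue sample. MiR-376b, miR-378 and miR-137 were left out by the rule. In all, 1115 of 3854058 distinct tags met it, with 156223 reads, in 58 of 59 miRNAs with a usable sequence. T-to-C tags, found in the same way and used as the background, numbered 1107 with 152667 reads.

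Adenosine deaminases acting on RNA (ADARs) convert adenosine to inosine in double-stranded RNA, including the hairpins from which miRNAs are cut. Inosine pairs with cytidine and is therefore read as G, so that an edited site appears as an A-to-G mismatch. Editing in the brain is best known from receptor and channel transcripts and from the miR-376 family, and ADARs favour some bases 5′ of the edited adenosine over others. A change in the seed, bases 2 to 8 of the mature miRNA, alters the set of mRNAs that it can pair with. T-to-C is the complementary change, which ADARs do not make in the sequenced strand.

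The small RNAs came from Sprague Dawley rats of 3 embryonic (E10, E13 and E17) and 5 postnatal (P0, P3, P7, P14, P28) ages in days, with no genetic change or treatment in any group. Forebrain was taken at E10 and E13, according to the labels, and somatosensory cortex at the later ages, so for E10 and E13 stage and dissected tissue cannot be told apart. P0 had 2 tissue samples and each of the other 7 stages had 1, and each tissue sample gave 2 runs, which are technical repeats, for a total of 18 libraries of 4899010 to 16590379 clean reads. Runs were summed and the 9 tissue samples were the unit of the tests, except in slope fits over the 18 libraries, which are named as such. P-values therefore measure only the spread between these samples. The share of an event is the reads with the change divided by the covering reads. These are the changed reads plus the unchanged reads of that miRNA that cover the site, without reads that carry another mismatch. The rate of a kind of change is the same quotient over all sites, in changed reads in 1000000 covering reads (ppm). No intensity or base quality was used here, and intervals of shares (Wilson, 95%) cover counting error only.

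The mature sequences of the miRNAs with the largest A-to-G shares are shown first, with the seed in capitals, because position and seed are used throughout. T stands for U, as in the tags.
rno-miR-219-2-3p: aGAATTGTggctggacatctgt
rno-miR-494: tGAAACATacacgggaaacct
rno-let-7d: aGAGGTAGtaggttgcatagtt
rno-let-7b: tGAGGTAGtaggttgtgtggtt
rno-let-7i: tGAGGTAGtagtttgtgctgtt
rno-let-7e: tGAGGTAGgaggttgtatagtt
rno-miR-130a: cAGTGCAAtgttaaaagggcat
rno-miR-99b: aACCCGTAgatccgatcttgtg
rno-miR-124: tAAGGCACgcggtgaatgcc
rno-miR-322*: aAACATGAagcgctgcaaca
rno-miR-296: gAGGGTTGggtggaggctctcc
rno-miR-92a: tATTGCACttgtcccggcctg
The 4 let-7 members share 1 seed, and so do miR-25, miR-92a and miR-92b. Over the 59 members there were 43 different seeds. The sequence under the name miR-99b is the one its primers give, which lies in the hairpin that RefSeq names Mir99a.

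The most read tags of the main A-to-G events are shown next, with the changed base in capitals. A token such as A15G gives the base of the miRNA, its position counted from 1 at the 5′ end, and the base read.
rno-miR-219-2-3p A15G: agaattgtggctggGcatct
rno-miR-494 A11G: tgaaacatacGcgggaaacct
rno-let-7d A19G: agaggtagtaggttgcatGgtt
rno-let-7b A3G: tgGggtagtaggttgtgtg
rno-let-7i A3G: tgGggtagtagtttgtgct
rno-let-7e A3G: tgGggtaggaggttgtatagtt
rno-miR-130a A8G: cagtgcaGtgttaaaagg
rno-miR-124 A15G: taaggcacgcggtgGatg
rno-miR-99b A15G: aacccgtagatccgGtcttgt
rno-miR-22 A2G: aGgctgccagttgaagaa
rno-miR-708 A2G: aGggagcttacaatctag
The changed tag of miR-219-2-3p differed from every other known rat miRNA at 6 or more bases and that of miR-494 at 5 or more, whereas those of let-7b A3G, let-7d A19G and let-7e A3G lay 2 bases from another let-7 member. In RefSeq (GRCr8) miR-219-2-3p lies at chr3:33516517-33516538 on the minus strand, in the hairpin Mir219-2. The same table places miR-494 at chr6:134550163-134550183 on the plus strand, in Mir494, let-7b at chr7:118684044-118684065 on the plus strand, and miR-22 at chr10:60805387-60805408 on the plus strand, in Mir22. The deposited tags have no coordinates or build of their own.

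A-to-G mismatches of these miRNAs were not shown to be more frequent than T-to-C mismatches. The A-to-G rate was 149 ppm at E10, 317 at E13, 564 at E17, 401 and 442 in the P0 samples, 355 at P3, 717 at P7, 479 at P14 and 955 at P28. The T-to-C rate in the same order was 403, 480.5, 479.6, 465, 449.8, 406, 623, 1118 and 579. A-to-G was thus the higher of the pair only at E17, P7 and P28, 3 of 9 tissue samples, and T-to-C was most above it at E10 and P14. The log2 ratio of the rates averaged -0.28 ± 0.70 (SD, n = 9), which did not differ from 0 (exact two-sided sign-flip permutation test, p = 0.277). Counting tags that lie within 1 mismatch of another known miRNA as well, nearly all of them let-7e A19G with 51661 of 52082 reads, turned the mean log2 ratio to 0.22 (exact sign-flip permutation test, p = 0.312). Without let-7 the mean was -0.66 (exact permutation test, p = 0.0117), and as a median over sites, each weighted equally, it was -0.59 (p = 0.0430), both past the threshold with T-to-C the higher. Run 1 alone put A-to-G above T-to-C in 1 of 9 tissue samples and run 2 alone in 6 of 9. Among the 12 kinds of single-base change, A-to-G ranked from 4 at P28 to 8 at P14.

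The level at a single site was low. Of 292 A sites with covering reads, 276 had A-to-G reads in at least 1 tissue sample, 16 had none, and 50 had them in all 9. Site shares were next taken with the reads of all tissue samples pooled, unlike the medians over tissue samples given for named events below. Over the 290 A sites with at least 10000 covering reads in all, the median pooled share was 0.0239%, with 7 sites above 0.1% and 1 above 1%. The 242 T sites of that depth had a median pooled T-to-C share of 0.0303%, with 17 above 0.1% and none above 1%. The 10 largest A-to-G events by reads held 53.5% of the A-to-G reads.

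By miRNA, rates were averaged over the tissue samples with equal weight, a choice made after the data were seen because the miRNAs take their reads from different stages. The A-to-G rate was then higher than the T-to-C rate in 14 of 59 members, with medians of 258 and 367 ppm, and in 15 of 59 with the reads of all samples pooled. It was more than 2-fold higher in 4 members and more than 2-fold lower in 15. MiR-219-2-3p, an oligodendrocyte miRNA, stood at 5506 ppm against 356 for T-to-C, and at 11747 ppm with reads pooled. Next came let-7d (824 against 687), let-7b (786 against 592), let-7e (704 against 679) and let-7i (627 against 429). MiR-134, a neuronal miRNA of the Dlk1-Dio3 cluster, was the member without any A-to-G read kept. The pool of 108453 reads that cover its A sites allows a rate of up to 27.7 ppm for tags in both runs.

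Members were also grouped by name and shared seed. Let-7, which promotes differentiation and is abundant in neurons, held 42.9% of all A-to-G reads and 48.8% of all T-to-C reads, with a median rate over the tissue samples of 708 ppm (range 292 to 1238) against 508 for T-to-C. The miR-29 family, which rises with neuronal maturation, had 227 against 318, the miR-30 family 303 against 434 and the miR-25/92 family 275 against 296. The group of miR-130a and its relatives had 387 against 292. Let-7 and this group were the 2 of 12 name groups with the higher A-to-G median over tissue samples. With reads pooled, T-to-C was the higher in each of the 3 members of the second group, at 239 against 322 ppm in miR-130a and 134.4 against 227 in miR-130b. With tissue samples weighted equally, A-to-G was the higher in miR-130b, at 110 against 85.1. T-to-C stayed the higher in miR-130a (391 against 408) and miR-301b (12.5 against 61.3). The 6 members of the Dlk1-Dio3 cluster, the imprinted locus that also holds miR-376b, had 267 against 415.

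MiR-219-2-3p A15G had the largest share of any A-to-G event, but nearly all of it came from the run 1 libraries. No changed read was kept at E10, E17 or P0 replicate 2, where 1781, 662 and 143 reads covered the site. For tags in both runs a count of 0 allows shares of up to 0.168%, 0.453% and 2.10%. Changed reads in 1 run alone are not counted in these limits. The share was 4.84% at E13, 0.939% in P0 replicate 1, 1.76% at P3, 3.26% at P7, 2.41% at P14 and 4.50% at P28. Samples from P7 on overlapped the earlier ones, since E13 was the highest of all. Run 1 gave a median of 3.27% and up to 6.01%, whereas run 2 gave a median of 0.203% and at most 0.495%, and run 1 was higher in all 6 tissue samples with the event. At the next base of the same miRNA, C16A stood at 2.23% at P7, 2.89% at P14 and 5.21% at P28, and in the P28 sample run 1 gave 6.70% and run 2 gave 0.0973%. Whether the run has a part in the A15G share beyond these values was not tested. In the slope test below, A15G had a log2 slope of 0.21 per stage (edgeR quasi-likelihood, adjusted p = 0.579). Without E13 the slope was 1.04 (edgeR, adjusted p = 0.176), without E10 it was 0.099 (adjusted p = 0.860) and without P28 it was 0.14 (adjusted p = 0.861).

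MiR-494 A11G was the other event above 1% in a sample, and it was seen in both runs. MiR-494 is a Dlk1-Dio3 miRNA, and the base before the site is C. The changed reads numbered 25 of 16610 at E13 (0.151%), 7 of 2259 in P0 replicate 1 (0.310%), 11 of 1007 at P7 (1.09%), 3 of 864 at P14 (0.347%) and 13 of 898 at P28 (1.45%). None was kept in the other 4 tissue samples, where 244 to 6354 reads covered the site and a count of 0 allows shares of up to 0.0472% at E10, 0.166% at E17, 0.857% in P0 replicate 2 and 1.23% at P3. The 3 samples from P7 on were above the 6 earlier ones, although the Wilson interval at P14, 0.118% to 1.02%, spans the value of P0 replicate 1. G was the only base other than A among the kept tags at this site in either run, in 39 reads of run 1 and 20 of run 2. With 59 reads in all, the slope of 0.76 log2 units per stage did not pass the test (edgeR quasi-likelihood, adjusted p = 0.291).

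The let-7 family gave 7 of the 15 A-to-G events with the largest median share, at positions 3, 7, 17 and 19. Let-7b A3G, in the seed, went from 0.00491% at E10 and 0.0258% at E13 through 0.131% at E17 to 0.221% at P7, 0.107% at P14 and 0.297% at P28, with 0.0645% to 0.121% from P0 to P3. The samples from P7 on did not all lie above the earlier ones, as E17 and P0 replicate 1 exceeded P14. The same site in let-7i had a median of 0.0921% (0.0268% to 0.222%), in let-7e of 0.0784% (0.0343% to 0.186%) and in let-7d of 0.0479% (0.0157% to 0.119%). In all 4 members P7 and P28 were the highest 2 samples.

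At A3 of let-7b the share of the site's changed reads that were G was 27.0% in run 1 and 72.9% in run 2. The corresponding values were 25.4% and 68.8% for let-7i, 28.3% and 70.5% for let-7e and 26.9% and 41.3% for let-7d. A3G was therefore the main change at the site in run 2 of the first 3 members and one of several elsewhere. The median share in run 2 was above that in run 1 in let-7b, let-7i and let-7e and below it in let-7d (0.0308% against 0.0477%). The slope of let-7b A3G was 0.51 log2 units per stage and did not pass the test over all events (edgeR quasi-likelihood, adjusted p = 0.202). It passed in DESeq2 (adjusted p = 0.0372) and in edgeR with the run as a block over 18 libraries (adjusted p = 0.0284).

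Near the 3′ end, let-7d A19G had a median of 0.126% (0.0666% to 0.420%) and was highest in P0 replicate 2 (0.420%), P3 (0.419%) and E17 (0.325%). Let-7d A17G (median 0.0765%) and let-7e A17G (0.0704%) were likewise highest in P0 replicate 2 and P3, at 0.193% and 0.179% for let-7d and 0.217% and 0.252% for let-7e. In run 2 alone none of these 3 events went above 0.124%. For let-7d A19G run 1 gave 0.764% in P0 replicate 2, 0.766% at P3, 0.389% at E17 and 0.280% at P28, so that the high values lay in run 1. The first 2 of these libraries also had a high A-to-C rate at positions 17 and 19, as given with the positions below.

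MiR-130a A8G, the last base of the seed, had a median of 0.0981%, with 7 of 9 tissue samples showing it and 0.241% at P28 as the highest, from 65 reads. MiR-124 A15G, in an abundant neuron-specific miRNA, had a narrow range of 0.0419% to 0.0859%. Run 1 gave 0.0966% to 0.185% and run 2 gave 0.0124% to 0.0629%, so that run 1 was higher in 9 of 9. MiR-99b A15G showed the same order in 8 of 9 (median 0.0736%), and the base before all 3 sites at position 15 named here is G. The remaining events were miR-322* A17G (median 0.0635%), miR-296 A2G (0.0586%), miR-92a A7G (0.0567%) and let-7b A7G (0.0552%), and the first event below this list was miR-130a A7G (0.0545%).

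The 5 T-to-C events with the largest medians were miR-181c T18C (0.414%, range 0.0997% to 0.767%), miR-25 T18C (0.409%), miR-124 T13C (0.170%), miR-323 T13C (0.133%) and miR-221 T20C (0.10%). All 5 sites follow a G. Apart from miR-219-2-3p A15G, no A-to-G event had a median above the first 3 of these.

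Sites where G was nearly the only other base read were rare. Among the 245 A sites with at least 10 changed reads in each run, A-to-G held at least 90% of the changed reads in both runs at 2 sites, 0.816%, and T-to-C did so at 1 of 198 T sites, 0.505%. This measure was chosen after the values were seen, and so were miR-708 A2G and the events of the left-out miRNAs named in the next sentences. The 2 sites were miR-494 A11G and miR-22 A2G. MiR-22, which is expressed in many tissues, had an A2G share of 0.367% at P7, 0.369% at P14 and 0.273% at P28. Before P7 it had 3 of 698 reads in P0 replicate 2 (0.430%), 2 of 4120 in P0 replicate 1 (0.0485%) and none in the other 4, where a count of 0 allows 0.0895% to 0.315%. Of the observed early shares only that of P0 replicate 2 overlapped the later ones, and the limit at E17, 0.315%, also lies above the share at P28. From P7 on run 1 was the higher, with 0.433% against 0.172% at P7, 0.477% against 0.193% at P14 and 0.386% against 0.123% at P28.

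In the miRNAs left out by the rule, 5 sites had that property. MiR-376b A6G went from 5.11% at E10 to 87.3% at P28, and miR-378 A16G ranged from 0.504% to 7.60%. MiR-376a, the family member of miR-376b among the 59 miRNAs, with the same T before the A at position 6, had A6G shares of 0.0283% to 0.0512% in 4 of 9 tissue samples. It had none in the other 5, where a count of 0 allows shares of up to 0.00598% at E10 and up to 0.115% at E17.
rno-miR-376b: aTCATAGAggaacatccactt
rno-miR-376a: aTCGTAGAggaaaatccacgt

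The mean A-to-G, T-to-C and G-to-A rates were all higher from P7 on, and none of the differences tested passed after adjustment. A-to-G stood at 717 ± 238 ppm (SD, n = 3) at P7, P14 and P28 against 371 ± 138 (n = 6) before (exact two-sided permutation test, p = 0.0476, adjusted over 3 values p = 0.0714). T-to-C stood at 774 ± 299.5 against 447 ± 35.2 (exact permutation test, p = 0.0238, the smallest that 3 against 6 allow, adjusted p = 0.0714). The log2 ratio of A-to-G to T-to-C was -0.10 ± 1.01 against -0.37 ± 0.59 (exact permutation test, adjusted p = 0.643). G-to-A stood at 637 against 362. Tag length and single samples moved these differences. With tags of the mature length only, the A-to-G difference was 150.3 ppm (exact permutation test, adjusted p = 0.357), and as a median over sites it was 181 ppm for A-to-G and 189 for T-to-C. With tags within 1 mismatch of another miRNA counted it was 214 ppm for A-to-G, and run 1 alone gave 504 for T-to-C. As to samples, without P28 the A-to-G difference went from 346 to 227 ppm and the late minus early log2 ratio from 0.27 to -0.14, and without P14 the T-to-C difference went from 326 to 154 ppm. With the values of both runs averaged at equal weight, which fits no term for the run, the differences were 379.4 ppm for A-to-G and 397 for T-to-C. Both passed (exact permutation test, adjusted p = 0.0357). Without let-7 they were 365 and 243 ppm and both passed as well (exact permutation test, adjusted p = 0.0357).

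Over the 8 stages in order, the A-to-G rate had Pearson's r = 0.79 (exact permutation test, p = 0.00911, adjusted over 2 values p = 0.0182) and Spearman's rho = 0.74 (p = 0.0260, adjusted p = 0.0521, exact permutation test). With the values of both runs averaged at equal weight rho was 0.83 and passed (exact permutation test, adjusted p = 0.0166). Without P28 and E10 the correlation was r = 0.44 (exact permutation test, p = 0.321), and without P28 and P14, which lie as far from the middle stage, r = 0.75 (p = 0.0512). The relation did not pass without both P28 and E10, and its adjusted call was lost without either: leaving out E10 alone gave r = 0.71 (exact permutation test, p = 0.0465, adjusted p = 0.0930) and leaving out P28 alone r = 0.67 (exact permutation test, p = 0.0667, adjusted p = 0.133), whereas without P14 it was r = 0.88 (p = 0.00461, adjusted p = 0.00878, exact permutation test). The log2 ratio to T-to-C had r = 0.45 (exact permutation test, p = 0.220) and rho = 0.45 (p = 0.224), with r = 0.85 without P14, r = 0.16 without E10 and r = -0.32 without P28 and E10. The T-to-C rate itself had r = 0.60 (exact permutation test, p = 0.0745) and rho = 0.63 (p = 0.0773), and G-to-A had r = 0.73 (exact permutation test, p = 0.0258) and rho = 0.59 (p = 0.0981).

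No single A-to-G event of the 59 miRNAs passed the test of a slope over the stages. Of 1706 single-base changes of all kinds tested, those of the 3 left-out miRNAs included, 0.117% rose and 0% fell (edgeR quasi-likelihood, adjusted p under 0.05). The 2 that rose were miR-219-2-3p C16A and miR-376b A6G, the latter an A-to-G event of a left-out miRNA with a slope of 1.02 log2 units per stage (edgeR, adjusted p = 5.88e-05). Among the 160 A-to-G events of the 59 miRNAs, 0 were called, with 20 at an unadjusted p under 0.05. Among 148 T-to-C events 0 were called, with 21 at that level, and among all 1706 changes 261 were at that level. The median slope was 0.25 log2 units per stage for A-to-G, 0.18 for T-to-C and 0.23 for all 12 kinds, and 147 of 160, 122 of 148 and 1426 of 1706 slopes were above 0. The test has little power at this size: on simulated counts it recovered 8.89% of the events given a slope of 0.6.

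DESeq2 called 5 of the 160 A-to-G events as rises, where it called 3.46% of all changes as rises and 0.0586% as falls. These were let-7b A3G and A10G, miR-124 A16G, miR-140* A12G and miR-708 A2G. MiR-708 A2G had no read kept at E10, E13 and P3, which allows up to 0.00889%, 0.0167% and 0.0401%, 0.0515% at E17, 0.102% and 0.0355% at P0, 0.384% at P7, 0.567% at P14 and 0.368% at P28. The late samples were all above the early ones. Run 1 and run 2 gave 0.486% and 0.0613% at P7, 0.535% and 0.610% at P14, and 0.488% and 0.102% at P28. Its slope was 1.12 log2 units per stage (edgeR quasi-likelihood, adjusted p = 0.202), 1.15 in DESeq2 (adjusted p = 0.00530), 0.70 in edgeR with tags in either run (adjusted p = 0.0174) and 1.04 in edgeR with the run as a block over 18 libraries (adjusted p = 0.00236). With the run as a block over 18 libraries, 13 A-to-G events rose and 2 fell, where 12.4% of all changes rose and 0.815% fell, but this fit counts each tissue sample in both of its runs.

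Of 241 A-to-G events seen often enough to compare, 32 (13.3%) had all shares of P7, P14 and P28 above all earlier ones, where 11.3% of the 2407 events of all kinds had this and 0.665% had the opposite. For T-to-C it was 31 of 207 (15.0%). The A-to-G share was close to that of all changes.

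The base 5′ of the site was measured for A-to-G at 62 sites after T, 72 after G, 78 after C and 80 after A. The median rates over the tissue samples were 534 ppm after T (149 to 904), 563 after G (223 to 1640.1), 360.3 after C (146 to 651) and 247 after A (73.2 to 493). The log2 ratio of the rate after T to that after G was -0.36 ± 0.50 (SD, n = 9, below 0 in 7, exact sign-flip permutation test, adjusted p = 0.109). After T against all other bases it was 0.11 ± 0.43 (adjusted p = 0.473, exact permutation test). Let-7 gave 81.7% of the A-to-G reads after T. Without let-7 the 2 values were -1.04 and -0.64 (exact permutation test, adjusted p = 0.00391 for both), so that the second turned in sign, and without P3 the first was -0.48 (adjusted p = 0.0208). Tags of the mature length gave 0.45 and 0.62 (exact permutation test, adjusted p = 0.0312 for the second), and sites at least 5 bases before the end gave -0.58 and -0.10 (exact permutation test, adjusted p = 0.0104 for the first), so that neither ratio kept its sign over the alternatives. With tags within 1 mismatch of another known miRNA counted as well, mostly let-7e A19G, the values were 0.87 and 1.34 (exact permutation test, adjusted p = 0.0391 and 0.00521).

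T-to-C was lower after T than after G in every tissue sample. Its median rate was 666 after G, 400.0 after A, 345 after C and 283 after T, and G preceded the site in 72.4% of its reads. Sites after G also held 156728094 of the 271594199 covering reads of T sites, and let-7 gave 54.6% of the changed reads after G. The ratio after T to after G was -1.19 ± 0.58, and after T to all others -0.96 ± 0.49 (both below 0 in 9 of 9, exact sign-flip permutation test, adjusted p = 0.00781). Whether A-to-G and T-to-C differ in this ratio was not tested.

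Along the miRNA, positions 2 to 8 had a median A-to-G rate of 404 ppm and later positions 491. The log2 ratio was -0.27 ± 0.30 (SD, n = 9, below 0 in 7, exact sign-flip permutation test, adjusted p = 0.0547), and -0.04 for T-to-C (adjusted p = 0.711, exact permutation test). Leaving out P0 replicate 1 gave -0.31 (adjusted p = 0.0469, exact permutation test) and leaving out P7 gave -0.35 (adjusted p = 0.0312). The runs went opposite ways: run 1 gave -0.96 ± 0.65, below 0 in 9 of 9, and run 2 gave 0.39 ± 0.30, below 0 in 1 of 9. The difference between them was -1.36 (exact sign-flip permutation test chosen after the data were seen, adjusted p = 0.0273).

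The high values of run 1 lay at a few positions in a few libraries. At position 15 run 1 of P28 had 7001 ppm of A-to-G, where the other tissue samples had 282 to 2179.8 and run 2 of P28 had 552. A-to-C at position 15 in run 1 was 402 ppm at P28 but 7132 at P14. At position 19 run 1 had 7152 in P0 replicate 2, 7002 at P3 and 3761 at E17, and run 2 had at most 1113. A-to-C at position 19 was also high in run 1 of P0 replicate 2 and P3, with 6850 and 6178, but was 404 at E17. In run 2 of P0 replicate 2 and P3 it was 499 and 443. At position 17 run 1 had 3648 in P0 replicate 2 and 3604 at P3, against 778 and 689.7 in run 2. A-to-C at position 17 was high in the same run 1 libraries, with 16249 and 20273 ppm, against 402 and 689.7 in run 2. In the P28 sample run 1 also had a high rate at position 4 for all 3 changes of A, with 2691 for A-to-G, 3689 for A-to-C and 2056 for A-to-T. T-to-C at position 4 was high there too, with 5105 ppm in run 1 and 630 in run 2. In run 2 the highest A-to-G rate within the seed was at position 3, with a median of 605 and up to 1617, where the let-7 A3 site lies.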

How the data were processed

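Small RNA libraries were sequenced by the study, and the authors deposited for each of 18 libraries a table of clean tags with their counts after adapter and quality trimming. Counts were not normalized, and no aligner or genome build applies to the tags. The members, lists and tests were chosen with earlier results of these data known. The paper's primers (28 miRNAs) and its list of changes (28 matched to RefSeq, 3 to the tags) gave 59 sequences, 54 of which match a RefSeq mature sequence and 49 of which have GRCr8 coordinates. Tags of 18 to 30 nt, up to 3 nt past the mature end, were compared base by base with Python 3.11.15 and numpy 2.4.6. Left out were 31 A-to-G tags (52082 reads) within 1 mismatch of another known miRNA, nearly all of let-7e A19G, and 1535 tags (4468 reads) never seen in both runs of a sample. The 2035 unchanged tags held 71777563 reads.

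Exact tests over tissue samples were computed with numpy, and scipy 1.17.1 gave the Wilson intervals. P-values were adjusted by the Benjamini-Hochberg method within each family. Slopes on stage order used the edgeR 4.0.16 quasi-likelihood test in R 4.3.3, with the unchanged reads as offset, over events with at least 10 reads in at least 2 tissue samples, and DESeq2 1.42.0 as an alternative. On simulated data all changed tags placed were recovered, and of 1531 simulated events the slope test called 0 of 87 with slope 0.3 and 8 of 90 with slope 0.6, and 0 of 1354 without a slope. Depth was 4899010 to 16590379 reads per library, and Wilson intervals (95%) and limits from a count of 0 (3 counts) cover counting error only, since reads are not independent molecules. Those limits hold only for tags present in both runs. The labels number the runs only as technical replicates 1 and 2 and do not say whether a run was shared between tissue samples. The log2 ratio of run 1 to run 2 shares correlated between tissue samples at over 0.1 in 36 of 36 pairs (r 0.319 to 0.918). Named A-to-G events are the 15 with the largest median share among those with at least 100 unchanged reads in each tissue sample, any past the slope threshold, and any above 1% with at least 1000 covering reads; 5 T-to-C events are named beside them. Alternatives were another tag filter, tag length, distance from the end, family, background, run and each tissue sample left out. For rates the values of both runs were also averaged, and for slopes the run was also fitted as a block.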

Additional observations from a re-analysis of the deposited data

Results flagged for a closer look

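In 27 groups of shares tested for a sample far from the others, 2 held one, where chance gives about 1 in 20. The share of miR-219-2-3p A15G was 4.84% at E13, whereas the other 5 tissue samples before P7 had 0 to 1.76%. The share of miR-296 A2G was 0 at E10, whereas the other 5 before P7 had 0.0571% to 0.0898%. Later samples also had 0, with 6222 covering reads at P14 and 314 at P28.

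In all, 3 measures differed between run 1 and run 2 of the same tissue samples by an exact sign-flip permutation test over 9 (adjusted p = 0.0273 each). Run 1 minus run 2 was -1.36 for the log2 ratio of A-to-G at positions 2 to 8 to later positions. It was -0.63 for T-to-C after T against after G and -0.48 for T-to-C after T against the other bases. In both T-to-C measures the 2 runs had the same sign in all 9 tissue samples.

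Outside A-to-G and T-to-C, miR-219-2-3p had 2 further high changes near the A15 site. C16A reached 5.21% at P28, from 6.70% in run 1 and 0.0973% in run 2. A17C reached 7.42% at P3, where run 1 gave 13.5% of its covering reads and run 2 gave 2.85%.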

How the results depend on the processing

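Of 340 values of rates under alternatives, 283 kept their direction and side of the threshold, and of 76 slope counts 65 stayed within 1.5-fold. Of 152 median shares of named events 18 moved by more than the spread, 9 of them with 1 run alone, and of 128 slopes of named events 6 newly passed and 1 turned in sign. The cause was not tested for any that did not. Values are log2 ratios, differences in ppm or correlations, and p is from the exact or permutation test the report uses, adjusted where it adjusts. A p in brackets marks a value that passed here and not in the report, or the reverse.

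Counting tags within 1 mismatch of several miRNAs for each gave 0.22 for A-to-G to T-to-C, -0.28 for its difference from P7 on, r = 0.63 (exact p = 0.135) for the A-to-G rate with stage, 0.87 (exact p = 0.0391) after T to after G, 1.34 (exact p = 0.00521) after T to other bases and -1.16 (exact p = 0.00781) for position. Keeping tags identical to another miRNA gave -2.28 (exact p = 0.00391) for A-to-G to T-to-C, a T-to-C difference of -2911, r = 0.77 (exact p = 0.00908) and rho = 0.71 (exact p = 0.0371) for the ratio with stage, rho = 0.74 (exact p = 0.0371) for A-to-G, and positions of -0.27 (exact p = 0.0312) for A-to-G and -2.31 (exact p = 0.00781) for T-to-C. Tags of the mature length gave -0.13 for the late ratio, r = 0.61 (exact p = 0.158), 0.45 after T to after G, 0.62 (exact p = 0.0312) after T to others and 0.10 for T-to-C position. Sites at least 5 bases from the end gave -0.58 (exact p = 0.0104), -0.10 and 0.080 for the last 3 of these. The median over sites gave -0.59 (exact p = 0.0430) for A-to-G to T-to-C and r = 0.61 (exact p = 0.163). It gave no finite value for A-to-G after T to after G, for the T-to-C neighbour ratios or for A-to-G position, where a median was 0.

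Without let-7 the values were -0.66 (exact p = 0.0117) for A-to-G to T-to-C, 365 and 243 (both exact p = 0.0357) for the A-to-G and T-to-C differences from P7 on, r = 0.70 (exact p = 0.0301) for the ratio, -1.04 and -0.64 (both exact p = 0.00391) for the neighbour and -0.35 (exact p = 0.0156) for position. Without let-7b position gave -0.50 (exact p = 0.0156). G-to-A as background gave 0.095. Tags in either run gave -0.24 (exact p = 0.0469) for position and at least 3 reads in each run -0.32 (exact p = 0.0391). Run 1 alone gave -0.96 (exact p = 0.00781) for position. Run 2 alone gave 0.39 (exact p = 0.0234) for position, r = 0.65 (exact p = 0.116), and -0.27 and 0.15 (both exact p = 0.0312) for the neighbour. Without P0 replicate 2 and P3, chosen after seeing the data, the neighbour gave -0.55 (exact p = 0.0208) and -0.055 and T-to-C position 0.069.

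With the values of both runs averaged at equal weight, the differences from P7 on were 379.4 and 397 for A-to-G and T-to-C (both exact p = 0.0357), and Spearman's rho of the A-to-G rate with stage was 0.83 (exact p = 0.0166). The averaging changed no other call of these rates. Calls of slopes in edgeR with the run as a block over 18 libraries were 13 rises and 2 falls for A-to-G and 19 and 1 for T-to-C. DESeq2 called 5 and 3 rises, TMM-scaled library totals (a level, not a share) 21 rises and 1 fall for A-to-G and 25 and 3 for T-to-C, where 244 rises and 55 falls were called over all 1706 changes, and tags in either run 1 A-to-G rise. The slope of miR-219-2-3p A15G with tags in either run was -0.00129.

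Leaving out each tissue sample gave -0.41 to -0.14 for A-to-G to T-to-C, 227 to 465 and 154 to 423 for the A-to-G and T-to-C differences, -0.14 to 0.84 for the late ratio, r = 0.67 to 0.88 and rho = 0.63 to 0.90 for the A-to-G rate, r = 0.16 to 0.85 and rho = 0.22 to 0.72 for the ratio, -0.48 to -0.27 and 0.018 to 0.21 for the A-to-G neighbour, -1.27 to -1.06 and -1.03 to -0.86 for the T-to-C neighbour, and -0.35 to -0.24 and -0.092 to 0.018 for position. The Spearman correlation of the A-to-G rate with stage passed without E17 (0.90) and without P3 (0.80), and r of the ratio without P14 (0.85). Leaving out E13 moved the slope of miR-219-2-3p A15G to 1.04 and leaving out E10 to 0.099. Depth limits events of miRNAs with few covering reads, such as miR-494.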

Other observations

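Changes of other kinds also stood nearly alone at their sites. C-to-T held at least 90% of the changed reads in both runs at 8 of 177 sites (4.52%), more sites than any other kind. Among these were miR-30e C11T (median share 0.653%, up to 1.11%), let-7i C18T (0.385%, up to 0.694%), miR-22 C8T (0.238%, up to 1.04%) and miR-92b C13T (0.235%, up to 0.659%). MiR-22, which also held the A2G site, had G10T at up to 0.796%, likewise with at least 90% of the changed reads of its site.

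MiR-344b-5p G10A was the event with the largest median of these, 2.27%. It was not seen at E10 and E13, where 70 and 136 reads covered the site, and stood at 3.95% at E17, 2.39% and 2.02% at P0, 2.27% at P3, 3.57% at P7, 1.97% at P14 and 2.29% at P28. It made up 99.4% of the changed reads of its site in run 1 and 99.5% in run 2. The share itself differed between the runs, with 22.7% in run 1 and 1.83% in run 2 at P7, 15.7% and 1.26% in P0 replicate 1, 10.9% and 1.73% at E17, 9.95% and 1.28% at P14 and 4.88% and 1.57% at P28, and close values in P0 replicate 2 (1.77% and 2.5%) and P3 (2.23% and 2.33%). These sites were picked after the values were seen and were not tested.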
